A study of Mus musculus with 24 samples.

Results

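The response of C57BL/6 (B6) quadriceps muscle to implanted polyethylene (PE) was measured as the difference between 3 libraries of PE-treated injuries and 3 libraries of saline-treated injuries, which are 6 of the 24 bulk RNA libraries of the study. The comparison ran over all 14159 rows of the deposited matrix that carry a gene symbol. In all B6 groups the mice were female C57BL/6J of the same young age range, and no allele or transgene was involved. For the PE and saline groups a square piece of muscle was cut from the mid-belly of the quadriceps (volumetric muscle loss, VML), the gap was filled with ultra-high molecular weight PE powder or with saline vehicle, and the whole quadriceps was collected on day 21. The same injury filled with decellularized extracellular matrix (ECM), uninjured B6 muscle, and the PE and saline groups of the MRL/MpJ (MRL) strain, each with 3 libraries, are used below for comparison. The labels do not pair the mice, and a whole muscle holds fibres, implant site and surrounding tissue together, so fewer cells of a type and less RNA per cell cannot be told apart in any value given here.

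Polyethylene is a durable plastic that cells cannot digest. Macrophages gather on such a particle, try to engulf it, build up lysosomes and can fuse into multinucleate foreign body giant cells with a gene program much like that of osteoclasts, while later stages wall the implant off with collagen. Lysosomal hydrolases, proton pumps, the phagocyte NADPH oxidase and interleukin-1 family cytokines are parts of the phagocyte machinery, and Dcstamp, Ocstamp and Atp6v0d2 are genes that cell fusion in osteoclasts depends on.

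Genes of this phagocyte program were higher in the PE-treated muscle, and few genes were called lower. By limma, which compared the groups on the log2 CPM scale (CPM is a read count scaled to library size, here normalized and with a small prior count added) and adjusted p for the false discovery rate among all genes tested, 845 genes passed an adjusted p of 0.05, 5.97% of those tested. Of these, 760 (5.37%) were higher and 85 (0.600%) were lower in PE. The median log2 fold change was 2.32 among genes called higher and -0.79 among genes called lower, beside 0.015 over all genes. A difference of at least 2 on the log2 scale was reached by 457 of the genes called higher and 4 of those called lower. The levels of the 3 PE and the 3 saline libraries did not overlap for 4209 genes (29.7%), of which 2643 (18.7%) were higher in PE and 1566 (11.1%) lower, and 840 of the 845 called genes were among them. At an unadjusted p of 0.05, 3563 genes (25.2%) passed, 2333 (16.5%) higher and 1230 (8.69%) lower. An exact permutation test of 3 libraries against 3 cannot give a 2-sided p below 0.10, so single genes are given with the limma fit.

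**Figure D1:**
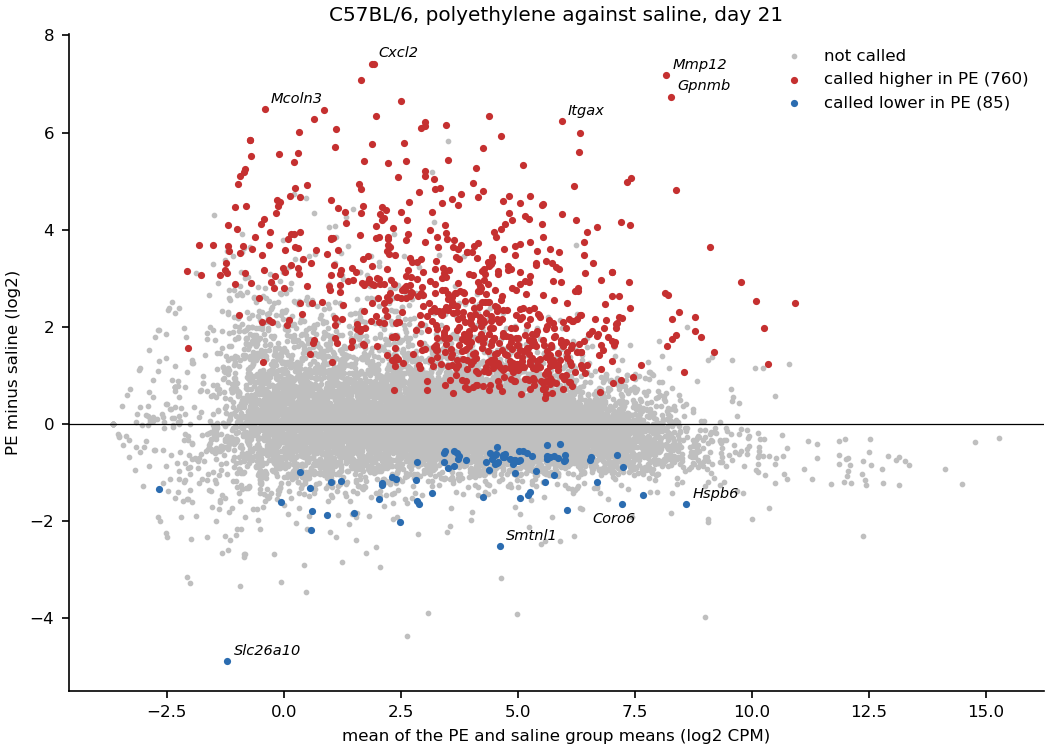
Each point is 1 of 14159 genes. The horizontal axis is the mean of the PE and saline group means in log2 CPM, the vertical axis the PE minus saline difference on the log2 scale, red points are the 760 genes called higher and blue points the 85 called lower. The red points reach 7.42 and the blue ones, apart from Slc26a10 at -4.88, stay at or above -2.51.

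The number of calls moved with single libraries. All 845 called genes kept their direction and an unadjusted p under 0.05 in each of the 6 fits that left out 1 PE or saline library. For 840 of them the groups did not overlap, so leaving out 1 library could not turn the direction. The kept direction is therefore no separate evidence. The number of genes past the adjusted threshold was nevertheless 7 without PE replicate 1, 2 without PE replicate 2, 1281 without PE replicate 3, 126 without saline replicate 1, 23 without saline replicate 2 and 37 without saline replicate 3. The 2 genes called without PE replicate 2 were Hdc and Olr1. In the same 6 fits the number of called lysosome genes described below ran from 0 to 34 of 40 and that of macrophage markers from 0 to 12 of 15, while their medians stayed between 1.73 and 2.33 and between 2.18 and 2.82. The fit pools its spread over all 24 libraries, and replicate 2 of PE-treated MRL mice stands apart from the others of its group, with a Pearson correlation across genes that falls to 0.812. Without that library 2476 genes (17.5%) were called, 1748 (12.3%) higher and 728 (5.14%) lower, among them all 845, and the median standard error of the 845 fell from 0.53 to 0.37. With the 12 B6 libraries alone 1551 genes were called, and 794 of the 845 were among them.

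The 3 PE libraries were not alike in the size of the response. Over the 760 genes called higher, the median difference from the saline mean was 2.15 in PE replicate 1, 3.07 in replicate 2 and 1.74 in replicate 3. Replicate 2 was the highest of the 3 for 745 of these genes and replicate 3 the lowest for 704. The 85 genes called lower mirrored this order, with medians of -0.71, -1.08 and -0.60, and replicate 2 was the lowest for 76 of them. The saline libraries stayed within -0.12 and 0.08 of their mean for the genes called higher.

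Which genes rose most was read from the 12 with the largest fold change whose groups did not overlap. Mmp12, the macrophage elastase (chromosome 9, 7344381 to 7369499 on GRCm39), had levels of 11.57, 12.60 and 11.11 log2 CPM in PE and 4.63, 4.71 and 4.38 in saline, a log2 fold change of 7.19 (SE 1.96, adjusted p = 0.0388 by limma). Gpnmb, a transmembrane glycoprotein of lysosome-rich macrophages (chromosome 6, 49013426 to 49047863), stood at 11.36, 12.54 and 11.01 in PE and 4.93, 4.99 and 4.76 in saline, a log2 fold change of 6.74 (SE 1.52, adjusted p = 0.0231). In both genes every PE library lay more than 6 log2 units above every saline library. Itgax, the CD11c integrin subunit of dendritic cells and activated macrophages (chromosome 7, 127728668 to 127749829), read 9.10, 9.94 and 8.12 in PE and 3.02, 2.57 and 2.85 in saline, a log2 fold change of 6.24 (SE 1.61, adjusted p = 0.0320).

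Several of the 12 genes had saline levels below 1 CPM. Cxcl2, a neutrophil-attracting chemokine (chromosome 5, 91051730 to 91053797), had 5.28, 7.01 and 4.49 log2 CPM in PE and -1.20, -0.62 and -3.65 in saline, where -3.65 is a count of 0, and its log2 fold change was 7.42 (SE 1.36, adjusted p = 0.0146). Irg1 (current symbol Acod1), which makes the macrophage metabolite itaconate, also changed by 7.42 (SE 1.32, adjusted p = 0.0108), from -0.70, -1.65 and -3.02 in saline to 5.70, 6.96 and 4.24 in PE. Mcoln3, a cation channel of endosomes and lysosomes, was at 0 in all 3 saline libraries and at 2.78, 3.35 and 2.34 in PE. Against the limit of 3 counts that a count of 0 allows per library (0.119 CPM at the mean effective library size, counting error only), its mean CPM was at least 61.2-fold higher in PE. The other genes of the 12 were Vsig8 (log2 fold change 7.09), Il1rn, the interleukin-1 receptor antagonist (6.64), Gp49a (6.46), Clec4e, the Mincle receptor (6.35), Atp6v0d2 (6.34) and Tm4sf19 (6.27). Gp49a belongs to a family with near-identical copies, so its share of reads is uncertain.

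**Figure D2:**
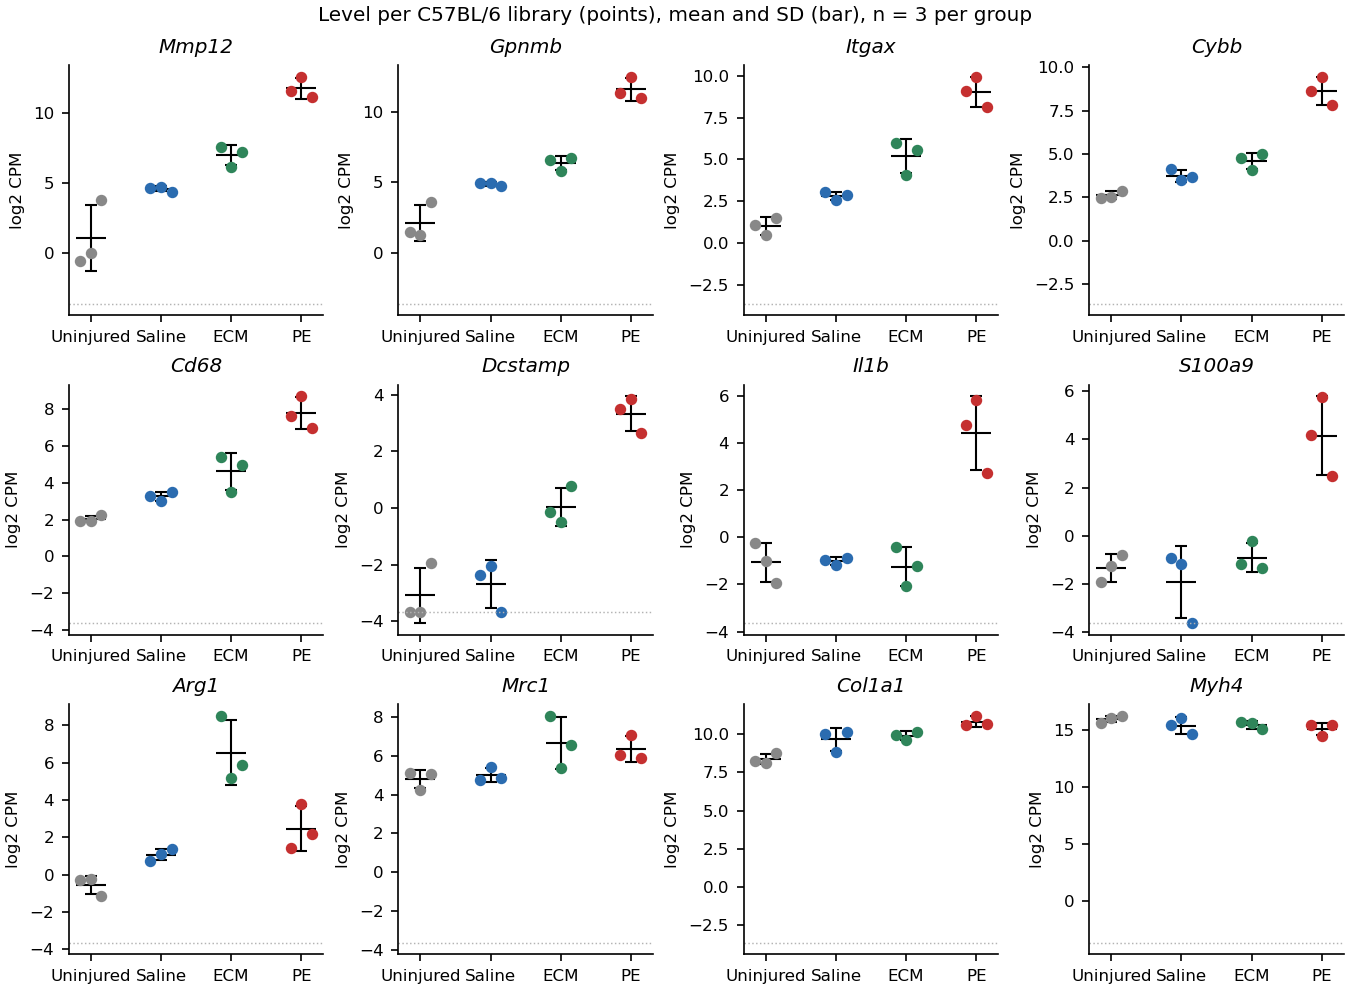
Points are the log2 CPM of each B6 library by group, with the group mean and SD as a bar (n = 3) and a count of 0 as a dotted line at -3.65. For Mmp12, Gpnmb, Itgax, Cybb, Cd68, Dcstamp, Il1b and S100a9 the 3 PE libraries lie above all other B6 libraries, for Arg1 the ECM libraries are highest, and for Myh4 the PE and saline libraries overlap.

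The 12 genes furthest lower moved less. Slc26a10, of an anion exchanger family (chromosome 10, 127007262 to 127016514), was at 0 in all 3 PE libraries and at 0.86, 1.89 and 0.95 in saline, so its mean CPM was at least 20.2-fold lower in PE (adjusted p = 0.0177). Smtnl1, a smoothelin-like muscle protein, read 3.37, 2.34 and 4.35 in PE and 4.84, 6.77 and 5.98 in saline, a log2 fold change of -2.51 (SE 0.70, adjusted p = 0.0425). The others ranged from Pde4c, a cAMP phosphodiesterase, at -2.18 to Crhr2, the receptor of urocortins, at -1.53. Between them came Ybx2 (-2.02), Npc1l1 (-1.80), the glutamine transporter Slc38a3 (-1.78), Coro6 (-1.65), the small heat shock protein Hspb6 (-1.65), Tppp2 (-1.61), Cst6 (-1.59) and Dennd6b (-1.55). PE replicate 2, the library with the largest response, was the lowest of the 3 PE libraries for each of these genes other than Slc26a10.

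Lysosomal genes were higher as a group. Of 40 lysosome genes, 29 were called higher and 0 lower, against 5.37% of all genes called higher. For 38 the PE levels lay entirely above saline, against 18.7% of all genes. The list median log2 fold change was 2.07 (range 0.26 for Mcoln1 to 6.34 for Atp6v0d2) beside 0.015 for all genes. Atp6v0d2, a subunit of the osteoclast and macrophage proton pump, read 7.43, 8.37 and 6.80 log2 CPM in PE and 1.33, 1.03 and 1.24 in saline. Ctsd, the aspartic protease cathepsin D, rose from 9.33, 9.39 and 9.12 in saline to 11.05, 11.97 and 10.72 in PE, a log2 fold change of 1.97 (SE 0.45, adjusted p = 0.0244). The cysteine proteases Ctss, Ctsk and Lgmn changed by 5.07, 3.96 and 2.38, with adjusted p of 0.0222, 0.0427 and 0.0360. Lamp1, the abundant lysosomal membrane protein, had a log2 fold change of 0.89 and did not pass (adjusted p = 0.0554). The summed CPM of the 40 genes was 12853 to 30922 in the PE libraries and 3521 to 4349 in the saline libraries.

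Because the lysosomal genes moved together, their promoters were searched for TCACGTG, the core of the element bound by the MITF and TFE factors of lysosome biogenesis, on both strands and within 250 bases before and 50 bases after the start of the Ensembl canonical transcript in the GENCODE annotation of GRCm39. The letters occurred in 8 of 39 lysosome promoters (20.5%), and in 5 of the 29 of lysosome genes called higher (17.2%). They occurred in 5.28% of the 13785 promoters of genes tested, in 5.25% of those of genes called higher and in 6.10% of those of genes called lower. GAGGAAG, a core bound by the myeloid factor PU.1, occurred in 25.6% of lysosome promoters, 13.5% of all, 21.4% of those called higher and 3.66% of those called lower. TGANTCA, the AP-1 core, occurred in 15.4% of lysosome promoters, 5.55% of all promoters, 7.81% of those called higher and 4.88% of those called lower. CAGCTG, an E-box of myogenic factors, occurred in 25.6%, 14.4%, 16% and 9.76%. The lysosome share was thus above that of all promoters for each of these 4 motifs. Of the 5 motifs searched, CANNTG, the general E-box that includes CAGCTG, was added later, and it occurred in 69.2% of lysosome promoters, 66.6% of all promoters, 70.1% of those called higher and 67.1% of those called lower. The stretches run 5′ to 3′ over the 120 bases before the transcript start, lower case, with the motif in capitals. The first 2 belong to called genes with TCACGTG (Ctsd and Hmox1, heme oxygenase) and the last 3 to called genes with GAGGAAG (Itgam, the CD11b integrin subunit, Trem2, a lipid-sensing myeloid receptor, and Mcoln3). The motifs also stood there in genes that were not called, such as TCACGTG in Lamp1 (0.89) and Cpt1b (-1.33), and GAGGAAG in Myh3 (-0.21) and Alas2 (-1.87).
Ctsd (GRCm39 chr7:141941776-141941895, minus strand): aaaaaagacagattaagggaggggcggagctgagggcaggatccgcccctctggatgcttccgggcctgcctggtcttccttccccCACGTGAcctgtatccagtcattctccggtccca
Hmox1 (GRCm39 chr8:75820121-75820240, plus strand): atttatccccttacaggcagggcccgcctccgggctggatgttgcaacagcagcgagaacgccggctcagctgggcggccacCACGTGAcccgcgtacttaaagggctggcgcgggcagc
Itgam (GRCm39 chr7:127661688-127661807, plus strand): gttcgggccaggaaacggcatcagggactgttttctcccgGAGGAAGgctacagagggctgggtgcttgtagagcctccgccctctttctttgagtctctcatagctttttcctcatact
Trem2 (GRCm39 chr17:48653309-48653428, plus strand): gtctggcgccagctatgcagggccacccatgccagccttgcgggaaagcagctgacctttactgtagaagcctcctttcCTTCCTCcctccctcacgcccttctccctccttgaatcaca
Mcoln3 (GRCm39 chr3:145827307-145827426, plus strand): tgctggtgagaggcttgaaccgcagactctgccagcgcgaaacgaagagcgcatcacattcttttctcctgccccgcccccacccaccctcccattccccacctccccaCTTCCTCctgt
These matches describe the letters of the reference and say nothing of binding in this muscle.

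All 8 genes listed with the phagocyte NADPH oxidase, which makes superoxide in phagosomes, were called higher, beside 5.37% of all genes. Their PE levels lay entirely above saline, beside 18.7% of all genes. They ranged from 3.03 for Vav1 to 4.90 for Cybb, with a median of 3.75. The list also held Vav1 and Hvcn1, which are not oxidase subunits. Cybb, the membrane subunit gp91phox (X chromosome, 9301491 to 9354010), had 8.66, 9.46 and 7.82 log2 CPM in PE and 4.13, 3.47 and 3.65 in saline (SE 0.96, adjusted p = 0.0177). Ncf1, the cytosolic p47phox subunit, changed by 4.19 (SE 0.97, adjusted p = 0.0244), and the voltage-gated proton channel Hvcn1 by 4.35 (SE 0.81, adjusted p = 0.0161).

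Genes of macrophage fusion moved unevenly. Of 24 measured giant cell and osteoclast-like fusion genes, 12 were called higher, beside 5.37% of all genes, and 0 lower. Called members that other lists also hold were Ctsk and Atp6v0d2 (lysosome), Trem2 and Cd9 (lipid-associated macrophage), Sirpa (paired receptors), Mmp9 (proteases) and Csf1r (macrophage markers). The counts of these lists are therefore not separate. The list median was 2.30. Dcstamp, the membrane protein that osteoclast fusion needs (chromosome 15, 39609214 to 39624334), read 3.48, 3.85 and 2.64 log2 CPM in PE and -2.37, -2.06 and -3.65 in saline, a log2 fold change of 6.02 (SE 1.24, adjusted p = 0.0198). Its partner Ocstamp read 0.94, 1.04 and -0.31 in PE and -0.18, 0.08 and 0.49 in saline, with overlapping groups and a log2 fold change of 0.43 (adjusted p = 0.475). Acp5, the tartrate-resistant acid phosphatase of osteoclasts, lay above saline in all 3 PE libraries, at 5.36, 5.86 and 4.65 against 3.48, 2.97 and 2.82, but did not pass (log2 fold change 2.20, adjusted p = 0.108). The range of the list ran from -1.01 for the calcitonin receptor Calcr to 6.34 for Atp6v0d2.

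Of 18 lipid-associated macrophage genes, 15 were called higher, beside 5.37% of all genes. The list median was 2.82, and Gpnmb and Itgax led the list. Spp1, osteopontin, read 9.55, 10.15 and 8.26 in PE and 2.86, 2.71 and 4.42 in saline, a log2 fold change of 5.99 (SE 1.64, adjusted p = 0.0394). Trem2 changed by 5.34 (SE 1.28, adjusted p = 0.0258), from 2.75, 1.99 and 2.54 in saline to 7.69, 8.64 and 6.99 in PE. The lowest member was Fabp4 at -0.48, a fatty acid carrier that adipocytes also make. The study itself describes a macrophage signature of this kind in this series, so the direction of the list is not independent evidence. It names Ctsb, Fabp4, Lpl and Plin2 as part of a signature enriched with PE in both strains. Here Ctsb (2.53) and Plin2 (2.48) were called higher, while Lpl (1.38) and Fabp4 were not called.

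Inflammatory cytokine and inflammasome genes were called in 10 of 15 measured cases, all higher, with a median of 2.76, beside 5.37% of all genes called higher. Il1b, interleukin-1 beta (chromosome 2, 129206490 to 129213059), read 4.73, 5.79 and 2.71 in PE and -0.96, -1.19 and -0.87 in saline, a log2 fold change of 5.42 (SE 1.08, adjusted p = 0.0194). Tnf changed by 4.70 (SE 0.80, adjusted p = 0.00999), and Nlrp3, the inflammasome sensor, had a difference of 2.59 that did not pass (adjusted p = 0.110). The lowest of the list was Nos2, the inducible nitric oxide synthase, at -0.48. Among 32 chemokines and their receptors 11 were called higher, 0 lower, and the median was 1.45. Ccl3, a macrophage inflammatory chemokine, changed by 5.70 (adjusted p = 0.0160), the monocyte attractant Ccl2 by 2.75 (adjusted p = 0.0272), and Ccr2, the receptor of Ccl2 on monocytes, had a difference of 1.25 (adjusted p = 0.213). Cxcl3 was at 0 in every saline library and its mean CPM was at least 46.6-fold higher in PE.

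Receptor and complement genes were called in part, beside 5.37% of all genes called higher. Of 25 pattern recognition and scavenger receptors 11 were called higher (median 2.16, lowest Tlr3 at -0.04), of 16 Fc and paired leukocyte receptors 10 (median 3.23) and of 21 complement genes 6 (median 0.90, lowest Cfd at -1.31), with 0 called lower in each. The complement median was 0.48 without PE replicate 2. Olr1, a scavenger receptor of oxidized lipoprotein (chromosome 6, 129462207 to 129484128), read 1.41, 1.73 and 2.06 in PE and -3.65, -3.65 and -3.04 in saline, a log2 fold change of 5.18 (SE 0.66, adjusted p = 0.00139). Clec7a, the beta-glucan receptor dectin-1, changed by 4.69 (adjusted p = 0.0283) and Clec4d by 6.09 (adjusted p = 0.0224). Marco changed by 4.02 and was called, while Tlr2 had a difference of 2.03 and was not. Fcgr3, an activating Fc receptor, changed by 3.19 (adjusted p = 0.0356) and Pirb, an inhibitory paired receptor, by 3.70 (adjusted p = 0.0244). The called complement genes included the receptor subunits Itgax, Itgb2 (5.60) and Itgam (4.51) and the C3a receptor C3ar1 (3.60), while C1qa, a subunit of the first component, had a difference of 1.38 that did not pass (adjusted p = 0.119).

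Genes of alternative macrophage activation had a median near 0. Of 16 measured members 0 were called, beside 5.37% of all genes called higher. At an unadjusted p of 0.05, 2 were higher, beside 16.5% of all genes. PE levels lay entirely above saline for 3, beside 18.7% of all genes. These shares are near those of all genes. The 3 were Arg1, Mrc1 and Chil3, the last named after its value was seen. The list median was -0.02, between -1.75 for Timd4 and 1.78 for Folr2. The median was 0.46 without saline replicate 2 and -0.12 without saline replicate 1. Arg1, arginase 1, read 1.40, 3.77 and 2.19 in PE and 0.75, 1.10 and 1.37 in saline, a log2 fold change of 1.38 (SE 0.83, adjusted p = 0.306). Mrc1, the CD206 mannose receptor, read 6.07, 7.11 and 5.90 against 4.76, 5.46 and 4.88, a log2 fold change of 1.33 (SE 0.58, adjusted p = 0.159). Retnla, a secreted product of alternatively activated macrophages, was spread from -3.52 to 3.87 within the PE group and had a difference of 1.73 (SE 2.52, adjusted p = 0.703).

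Antigen presentation, interferon and proliferation genes had smaller differences. The median was 1.03 for 18 MHC class II and antigen presentation genes with 1 called higher and 0.94 for 22 interferon-induced genes with 3 called higher. It was 1.20 for 19 proliferation genes with 1 called higher, and 0 were called lower in each list. Of all genes 5.37% were called higher, a share near 1 of 18 and 1 of 19. In these lists 15, 16 and 9 genes had PE levels entirely above saline, beside 18.7% of all genes. H2-Aa, a class II chain, differed by 1.00 (adjusted p = 0.286), Ifit1 by 1.43 (adjusted p = 0.0638) and the proliferation marker Mki67 by 2.05 (adjusted p = 0.0541). The called genes were H2-D1 (1.91, a class I gene with close relatives in the genome), Mx1 (2.06), Ifit2 (1.37), Irf9 (0.89) and Pcna (1.37).

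Of 34 collagen and matrix genes 1 was called, below the 5.37% of all genes called higher, and 20 had PE levels entirely above saline, beside 18.7% of all genes. Their median log2 fold change was 0.90, and 0.49 without saline replicate 2, in which their mean level was 4.67 log2 CPM against 5.87 and 6.00 in saline replicates 1 and 3. Col1a1, a chain of type I collagen, read 10.57, 11.21 and 10.67 log2 CPM in PE and 10.01, 8.81 and 10.15 in saline, a log2 fold change of 1.16 (SE 0.73, adjusted p = 0.331). Col3a1 differed by 1.24 (adjusted p = 0.235) and fibronectin, Fn1, by 1.99 (adjusted p = 0.0940). Acta2, the smooth muscle actin that marks myofibroblasts, read 4.65, 4.93 and 5.40 in PE and 4.74, 4.61 and 5.43 in saline, a difference of 0.07 (SE 0.35, adjusted p = 0.926) whose sign turned under 4 alternatives. The called gene was Thbs1, thrombospondin 1 (1.78, adjusted p = 0.0385). Of 22 matrix-degrading proteases and inhibitors 6 were called higher and 0 lower, with a median of 1.09. Mmp9, gelatinase B, read 5.94, 6.07 and 4.0 in PE and 0.83, 2.40 and -0.33 in saline (log2 fold change 4.37, SE 0.71, adjusted p = 0.00999), and the lowest was the inhibitor Timp4 at -1.26.

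Of 16 iron and heme handling genes 7 were called higher, beside 5.37% of all genes, and the list median was 0.45. Hmox1, which breaks down heme, rose from 2.91, 2.92 and 2.94 in saline to 5.72, 6.74 and 4.96 in PE, a log2 fold change of 2.88 (SE 0.59, adjusted p = 0.0198). Ftl1, a ferritin chain with many pseudogene copies, changed by 2.93 and the phagosomal metal transporter Slc11a1 by 3.67. Slc40a1 had a difference of 0.08 and was not called. Of the 12 immediate early and heat shock genes, Atf3 was called (3.47, adjusted p = 0.0464) and the list median was 0.26, or 0.57 without saline replicate 3.

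**Figure D3:**
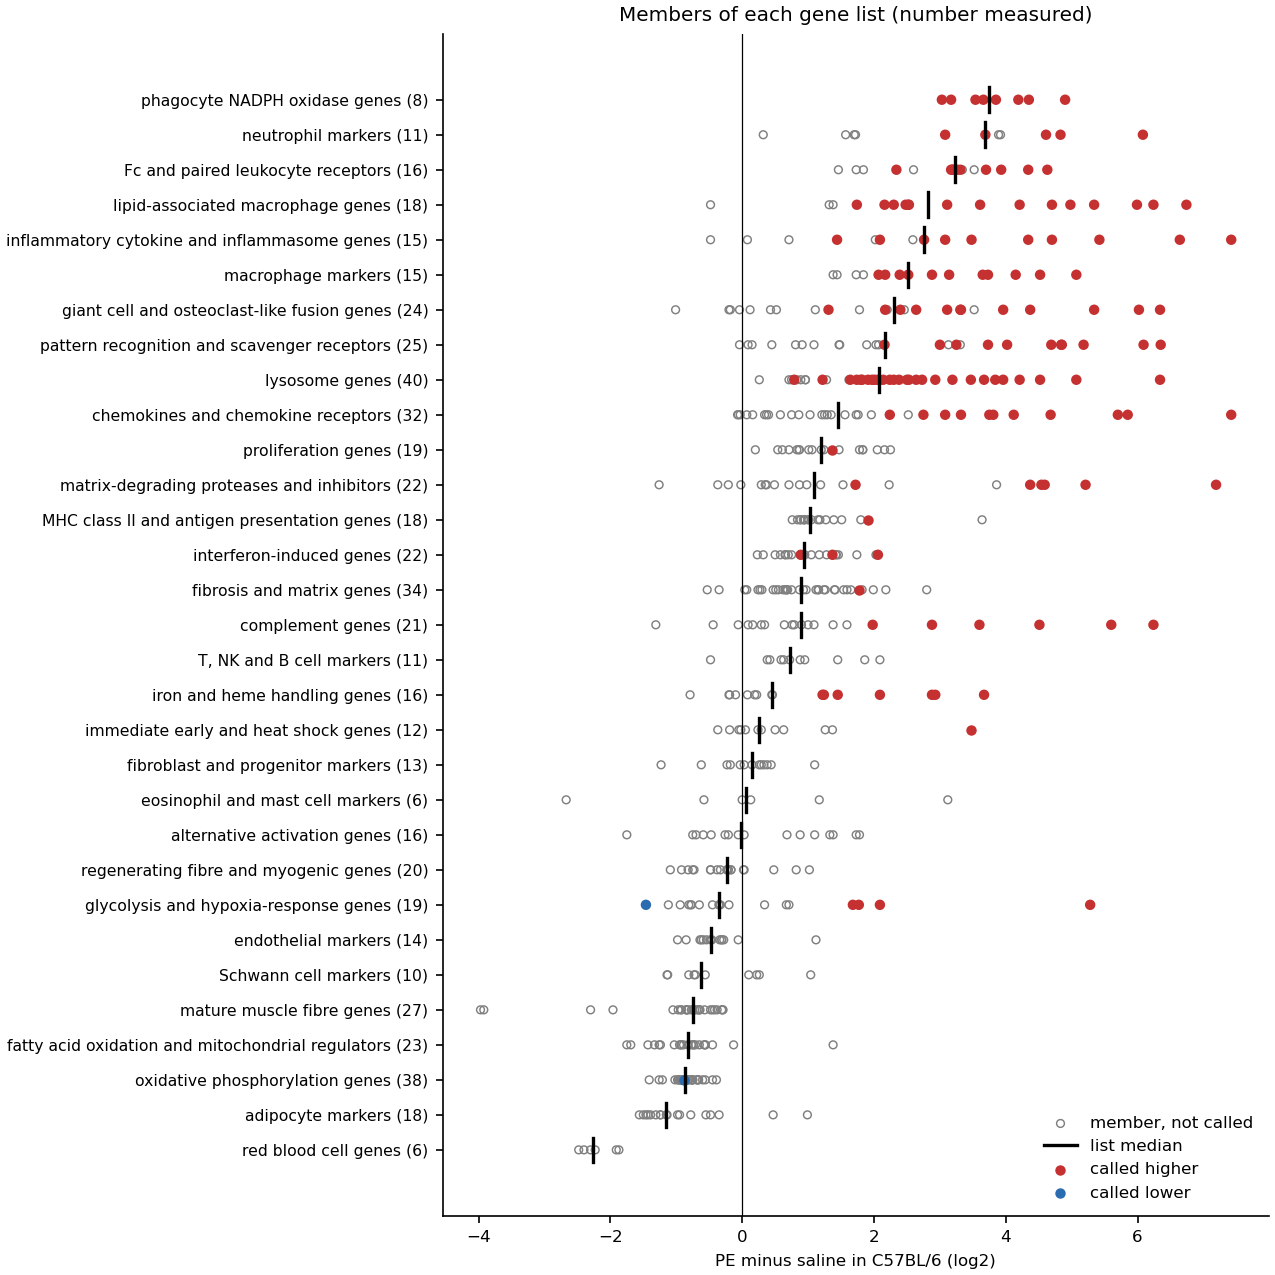
Rows are 31 gene lists with the number of genes measured, ordered by median, and the horizontal axis is the PE minus saline log2 difference. Open circles are members that were not called, red and blue points those called higher and lower, and black bars list medians, which run from -2.26 for red blood cell genes to 3.75 for phagocyte NADPH oxidase genes.

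Muscle and mitochondrial genes had negative differences, mostly without passing the test. Of 27 mature muscle fibre genes 0 were called, 5 passed an unadjusted p of 0.05 and 10 had PE levels entirely below saline (11.1% of all genes), with a median of -0.75 that was -0.35 without PE replicate 2, -0.18 after quantile normalization and -0.49 when every library was scaled to the same total. Acta1, skeletal actin, read 13.95, 12.93 and 14.08 in PE and 14.51, 14.98 and 14.24 in saline (log2 fold change -0.93, SE 0.61, adjusted p = 0.354), and the fast myosin Myh4 overlapped between groups (-0.29, adjusted p = 0.868). Of 38 oxidative phosphorylation genes 32 had PE levels entirely below saline, 33 passed an unadjusted p of 0.05 and 1, Atp5d (-0.88, adjusted p = 0.0495), was called. Their median was -0.86, all 38 were lower, and their range was narrow, from -1.41 for the muscle isoform Cox6a2 to -0.39 for Sdha. Without MRL PE replicate 2, which left the fold changes as they were, 32 of the 38 were called lower. Fatty acid oxidation genes had a median of -0.82 over 23 genes with 0 called and 5 lower at an unadjusted p of 0.05, and Cpt1b, which carries fatty acids into muscle mitochondria, differed by -1.33 (adjusted p = 0.0678).

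Of 19 glycolysis and hypoxia-response genes 4 were called higher and 1 lower, beside 5.37% and 0.600% of all genes. Their median was -0.35, and -0.58 without saline replicate 3, -0.12 without saline replicate 2, -0.11 without PE replicate 2 and -0.04 with quantile normalization. Hk3, the hexokinase of myeloid cells, rose from 1.67, 1.20 and 1.52 in saline to 6.55, 7.75 and 5.93 in PE, a log2 fold change of 5.28 (SE 0.93, adjusted p = 0.0108). Pgam1 (2.09), the glucose carrier Slc2a1 (1.77) and Pfkp (1.68), a phosphofructokinase, were the others called higher, the last named after its value was seen. Vegfa, the vascular growth factor, was the called member that was lower, at 6.99, 6.51 and 7.36 in PE and 7.86, 8.52 and 8.86 in saline (log2 fold change -1.46, SE 0.41, adjusted p = 0.0431). It too was named after its value was seen.

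The direction of regeneration genes turned with single saline libraries. Of 20 regenerating fibre and myogenic genes 0 were called by limma, 3 passed an unadjusted p of 0.05, all lower, and the median was -0.23, but it was -1.23 without saline replicate 2 and 0.28 without saline replicate 3. Embryonic myosin, Myh3, read 7.51, 2.58 and 7.88 log2 CPM in the saline libraries and 6.00, 5.09 and 6.26 in PE. Myogenin, Myog, read 6.66, 2.63 and 7.21 in saline and 5.67, 4.50 and 5.66 in PE. In both genes saline replicate 2 lay below the PE libraries and the other saline libraries above them. Pax7, which marks satellite cells, was lower in every PE library, at 1.33, 1.32 and 1.41 against 2.17, 1.96 and 2.19, a log2 fold change of -0.75 (SE 0.34, adjusted p = 0.180).

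Markers of other cell types moved with these results. All 15 macrophage markers lay above saline in every PE library, beside 18.7% of all genes. Of them 11 were called higher, beside 5.37% of all genes. Their summed CPM was 2433 to 8281 in PE and 326 to 446 in saline. Cd68 (chromosome 11, 69555037 to 69557067) read 7.66, 8.72 and 6.99 in PE and 3.28, 3.03 and 3.49 in saline (log2 fold change 4.52, SE 0.95, adjusted p = 0.0198), Emr1 (current symbol Adgre1, the F4/80 antigen) changed by 2.88 and the growth factor receptor Csf1r by 2.17. Since these genes rose with the lysosomal, oxidase and receptor lists above, the part that macrophage content had in those lists was not tested. Of the 11 neutrophil markers in the matrix 5 were called higher (median 3.69, and 1.92 on the log2(CPM + 1) scale and 1.82 with the index term), with a summed CPM of 52.8 to 204 in PE and 6.33 to 33.0 in saline, and 8 further markers, granule proteins such as Camp, Ngp, Elane and Mpo among them, were not among the genes analysed here. S100a9 read 4.20, 5.78 and 2.48 in PE and -0.93, -1.20 and -3.65 in saline (log2 fold change 6.08, SE 1.03, adjusted p = 0.00999), S100a8 changed by 4.61 and Csf3r, the G-CSF receptor, by 3.69. Hdc, the histamine-making enzyme of mast cells, basophils and neutrophils (chromosome 2, 126435558 to 126461318), read 4.11, 5.02 and 3.06 in PE and -1.38, -0.49 and -0.42 in saline (log2 fold change 4.83, SE 0.59, adjusted p = 0.00139).

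Other marker lists had 0 called genes by limma, beside 5.97% of all genes. The median was 0.72 for 11 T, NK and B cell markers (2 at an unadjusted p of 0.05 in either direction, beside 25.2% of all genes), 0.06 for 6 eosinophil and mast cell markers (2 at that p), 0.15 for 13 fibroblast and progenitor markers (1), -0.47 for 14 endothelial markers (5, of which 4 were lower), -0.63 for 10 Schwann cell markers (0) and -1.15 for 18 adipocyte markers (1). PE levels lay entirely below saline for 8 endothelial and 4 adipocyte markers, beside 11.1% of all genes, and above for 1 of each. They lay entirely above saline for 5 T, NK and B cell markers, beside 18.7% of all genes, and below for 1. With 1 library left out the median fell to -0.10 for eosinophil and mast cell and to -0.06 for fibroblast markers (both without PE replicate 2), and was -0.25 for endothelial markers without saline replicate 3 and -0.23 for Schwann cell markers without saline replicate 2. Siglecf, a receptor of eosinophils and some macrophages, differed by 3.12 (adjusted p = 0.0747). All 6 red blood cell genes were lower at an unadjusted p of 0.05, with a median of -2.26 that was -1.45 without saline replicate 2. Hbb-bs, a beta-globin gene, read 4.89, 5.61 and 4.64 in PE, 6.86, 9.08 and 6.08 in saline and 9.75, 8.92 and 10.07 in uninjured muscle (PE minus saline -2.30, SE 0.76, adjusted p = 0.0734). The part of residual blood in the tissue was not tested.

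Levels of the most induced genes in saline and uninjured muscle are given here beside the sequencing indexes that libraries shared. The mean saline CPM of the 12 genes furthest higher was 0.421 to 1.84% of the PE mean where it was above 0. Per the study's sequencing table, saline replicates 1 and 2 shared their first index with all 3 B6 PE libraries and saline replicate 3 shared its second with MRL PE replicate 2, while uninjured replicate 3 shared its second index with B6 PE replicate 1. Mmp12 read -0.59 and -0.04 in uninjured replicates 1 and 2 and 3.78 in replicate 3, and uninjured replicate 3 exceeded the other two for 11 of the 12 genes, against 28.4% of all genes. The part of shared indexes in the low levels was not tested. With the second index as a term 857 genes were called, 627 higher and 230 lower, but 463 of the 845 genes were among them in the same direction, so the calls changed more than their number.

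How far the response is one to PE rather than to any implant was asked by setting PE against ECM in B6, which reuses the PE libraries. Per the study's sequencing table, the 3 ECM libraries shared their first index with all 3 B6 PE libraries. ECM replicate 1 shared its second with MRL PE replicate 2. The part of shared indexes in the ECM levels was not tested. By limma, 32 genes (0.226%) were called between the 2 materials, 28 higher (0.198%) and 4 lower (0.0283%) in PE, and 2911 passed an unadjusted p of 0.05. The count was 1 without PE replicate 2, between 2 and 5 without PE replicate 1 or any 1 ECM library, 53 without PE replicate 3 and 1622 without MRL PE replicate 2. Il1b read -0.43, -2.09 and -1.24 in ECM, below all PE libraries, and its PE minus ECM difference was 5.66 (SE 1.08, adjusted p = 0.0443) beside 5.42 against saline. S100a8 and S100a9 differed by 4.68 and 5.07 (adjusted p = 0.0443 and 0.0481), Cxcl3 by 5.43 (adjusted p = 0.0395), Mmp9 by 3.47 (adjusted p = 0.0481), Hvcn1 by 4.17 (adjusted p = 0.0443), Hdc by 3.41 (adjusted p = 0.0370), Mcoln3 by 5.06 (adjusted p = 0.0396) and Vsig8 by 5.64 (adjusted p = 0.0481). Among genes chosen after their values were seen, Ptgs2, cyclooxygenase 2, differed from ECM by 4.42 (adjusted p = 0.0294) and from saline by 4.34 (adjusted p = 0.00999), and Mfge8, a bridge between dying cells and phagocytes, by 4.51 (adjusted p = 0.0370) and 4.81 (adjusted p = 0.00999).

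Genes lower in PE than in ECM were of another kind. The 4 called were Rnase2a, an eosinophil-type ribonuclease of a family with close copies (-6.42, adjusted p = 4.14e-05), Chil3, the chitinase-like protein Ym1 (-5.08, adjusted p = 0.0382), Arg1 (-4.07, adjusted p = 0.0481) and Mrgprg (-3.60, adjusted p = 0.0494), and apart from Arg1 they were named after their values were seen. Arg1 read 8.51, 5.19 and 5.88 in ECM, above all PE and saline libraries. Chil3 read 8.91, 4.36 and 5.94 in ECM, 0.74, 2.62 and 0.62 in PE and -0.07, 0.52 and 0.23 in saline. Against saline, 0 of the 4 were called in PE. Lysosome genes had a PE minus ECM median of 1.5 with 0 called and 38 of 40 entirely above ECM (19.5% of all genes), and macrophage markers 2.05 with 0 called and 13 of 15 entirely above.

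Whether PE acted differently in MRL mice was tested as the PE minus saline difference in B6 minus that in MRL. By limma 0 genes were called (614, or 4.34%, at an unadjusted p of 0.05), and PE minus saline within MRL gave 0 calls as well (3298 at an unadjusted p of 0.05). The 3 MRL PE libraries were unlike each other. Mmp12 read -0.90, 12.81 and 5.53 in them and 5.80, 5.94 and 6.28 in MRL saline, and Cd68 3.07, 8.84 and 3.35 against 3.83, 2.90 and 3.32, so that in replicate 2 both were at or above the B6 PE level and in replicates 1 and 3 near or below saline. Per the study's sequencing table, all 3 MRL saline libraries and MRL PE replicate 3 shared their first index with MRL PE replicate 2. MRL PE replicate 1 did not. The part of shared indexes in these levels and in the strain differences was not tested. Without MRL PE replicate 2 the difference between strains was called for 625 genes (4.41%), 530 of them (3.74%) larger in B6, and among them were Cybb (5.11, adjusted p = 3.25e-05), Gpnmb (8.91, adjusted p = 0.000156), Cxcl2 (9.07, adjusted p = 0.00108) and Dcstamp (6.57, adjusted p = 0.000959). With all libraries the same differences were 3.15, 5.97, 6.98 and 4.30 (each adjusted p = 0.988). The 760 genes called higher in B6 had a median PE minus saline difference of 1.14 in MRL with all libraries and 0.19 without replicate 2.

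**Figure D4:**
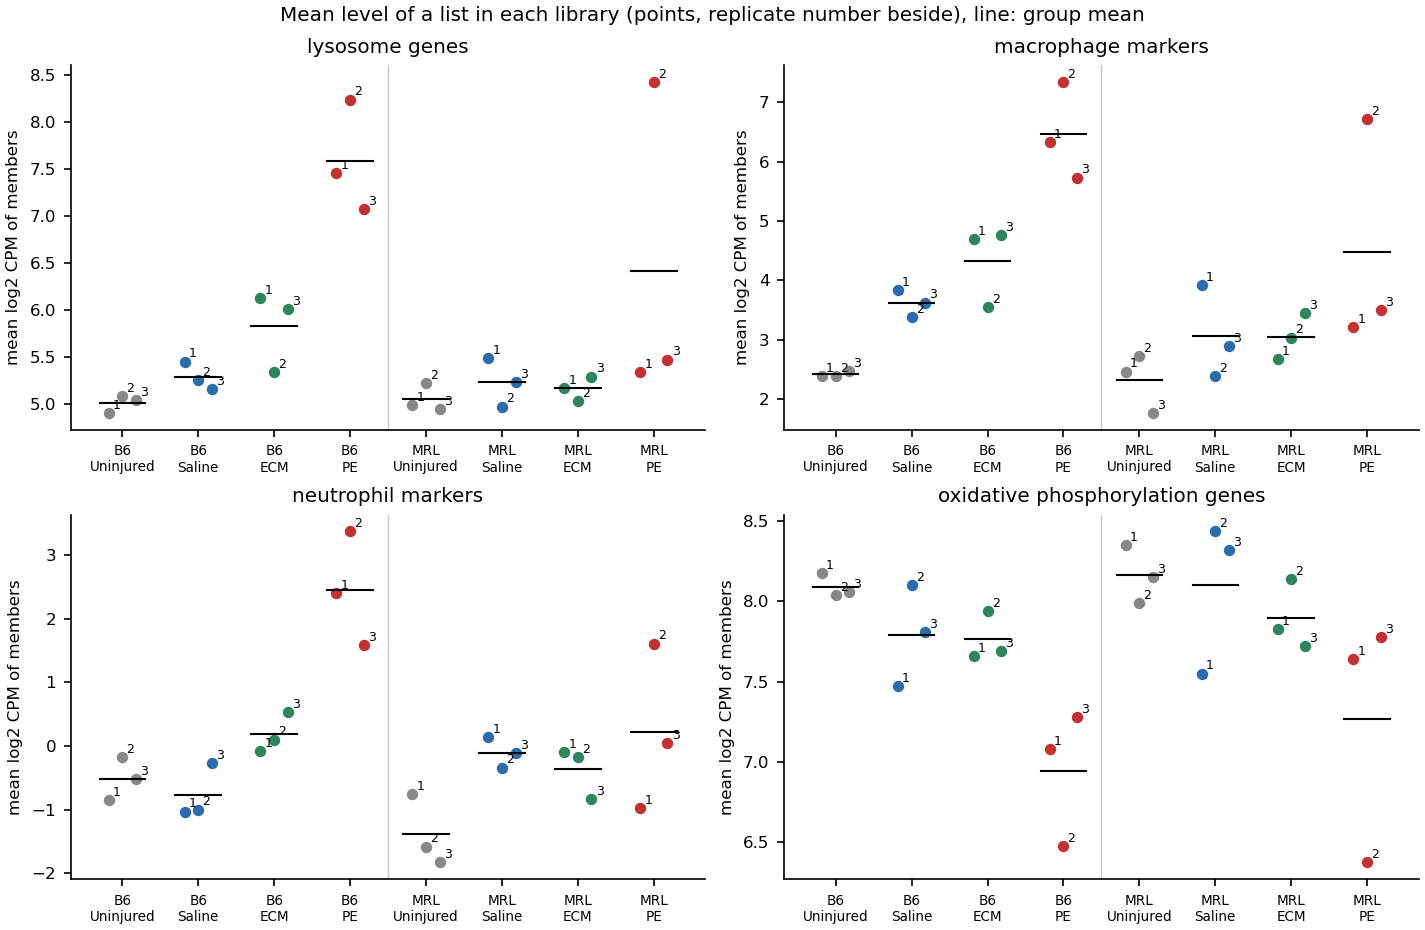
Points give the mean log2 CPM over the members of a list in each of the 24 libraries, labelled by replicate number, with lines at group means. Lysosome genes are at 7.46, 8.24 and 7.07 in B6 PE and 5.45, 5.25 and 5.16 in B6 saline, and MRL PE replicate 2 (8.43) stands apart from replicates 1 and 3 (5.34 and 5.47) in all 4 lists.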

How the data were processed

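RNA of whole quadriceps was sequenced after poly(A) selection. Per the study's methods, the authors ran kallisto on the Ensembl cDNA set of GRCm39, summarized transcripts to genes with tximport, kept genes above 1 CPM in at least 3 libraries, and deposited TMM-normalized log2 CPM from edgeR, with a prior count of 2. These log2 values are not counts, and counts per library were not used here. At the mean effective library size of 25149678, 3 counts are 0.119 CPM, which covers counting error only. The row without a symbol (0.002 to 0.025% of CPM) was left out of tests.

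Groups were compared with limma 3.58.1 (R 4.3.3; trended prior variance, 1 coefficient per group, all 24 libraries), 2-sided, with Benjamini-Hochberg adjustment over 14159 genes and a threshold of 0.05. Fold changes are on the scale with the prior count and understate the change of low genes. P-values measure the spread between these libraries. On simulated data for B6 PE against saline with 200 of 14159 genes changed, 58% of changes of 1.5 and 91% of changes of 3 (log2) were recovered with 7 false calls. The simulated noise was independent between genes and had the same SD in every library. The real libraries differ as wholes, so these rates cannot be carried over to the real comparison.

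The genes named were the 12 furthest higher and lower without overlap, leaving out predicted genes, clones and pseudogenes. Of each list, fixed anchors and up to 3 called members were named, but not every anchor. Measured anchors left out above were not called. Among them were Cd74 (0.95), Irf7 (0.88), Hif1a (0.71), Top2a (2.16) and Ckm (-0.85). Other genes named are said to be chosen after their values were seen, come from the study, or mark the range of a list or its called members. Lists share members, such as Itgax in the lipid-associated macrophage and complement lists, so their counts are not independent. Members and lists were chosen with earlier results of these data known. Locations are from the GENCODE annotation, in which 13126 symbols were current and 661 older, while 372 had no match. The indexes were copied by hand from the study's sequencing table. The labels do not pair the mice. Residuals of same-numbered libraries correlated at 0.0938, -0.114 and -0.0756, which cannot show whether mice were paired. Alternatives were other scales, filters, normalizations, prior variances, library weights, subsets of libraries, a replicate block and an index term.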

Additional observations from a re-analysis of the deposited data

How the results depend on the processing

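PE against saline gave 3501 called genes with library weights (2190 higher), 2476 without MRL PE replicate 2 and 1551 with the 12 B6 libraries alone. Leaving out each compared library in turn gave 2 to 1281. The last 2 subsets were added after seeing the data. The share called higher was 89.9% as reported, 97.9% with equal totals, where the median of all genes moved to 0.273, 70.4% with quantile normalization, where it moved to -0.162, 98.0% with only the compared groups (707 calls), 62.6% with library weights and 73.2% with the index term. PE against ECM gave 121 calls on the log2(CPM + 1) scale, 0 among genes averaging 1 log2 CPM or more (2522 at an unadjusted p of 0.05), 3 with equal totals, 3720 with library weights, 166 with only the compared groups, 3 with the replicate block, 282 with the index term, 1622 without MRL PE replicate 2, 892 with the B6 libraries alone and 1 to 53 with single libraries left out. The strain difference gave 2 calls on the log2(CPM + 1) scale, 1909 with library weights and 0 to 625 with single libraries left out, the highest without MRL PE replicate 2 and 5 without B6 saline replicate 3. Library weights were estimated gene by gene. No label says that same-numbered libraries belong together, and a replicate block gave 658 calls for PE against saline and 0 for the strain difference. Except where fewer genes or libraries entered, the cause was not tested.

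Genes whose direction turned had differences smaller than their standard error. With 1 library left out, Retnla ran from -0.51 (without PE replicate 2) to 3.19, Acta2 from -0.13 (without PE replicate 3) to 0.32, Myh3 from -1.91 (without saline replicate 2) to 0.74, Myog from -1.66 (without saline replicate 2) to 0.63, and Myh4 from -0.67 to 0.07 (without saline replicate 2). Retnla was at -1.49 with library weights, Acta2 at -0.07 and Myh4 at 0.16 with quantile normalization, and Myh3 at 0.06 and Myog at 0.03 with equal totals. No median of the T, NK and B cell markers could be had under the filter on low values, which left none of them. Of list medians not given above, the index term moved chemokines to 2.31, MHC class II to 1.6, iron handling to 0.86, fatty acid oxidation to -1.59, T, NK and B cell markers to 1.41, red blood cell genes to -3.56 and immediate early genes to -0.06. Library weights moved complement to 0.40, interferon-induced genes to 0.59, matrix genes to 0.45, proteases to 0.68, oxidative phosphorylation to -0.56, adipocyte markers to -1.88 and Schwann cell markers to -0.06. Equal totals turned regenerating fibre genes to 0.03 and alternative activation to 0.24.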
